A study of Mus musculus with 8 samples.

Results

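The Toll-like receptor genes Tlr1 to Tlr9 and Cd14, which encodes a coreceptor for bacterial lipopolysaccharide, were measured in the oviducts of adult mice that had received genistein (Gen), a phytoestrogen of soy, as newborns. Every probe whose gene name in the array annotation was one of these 10 genes was taken, whatever its signal. This gave 12 probes of the 41174 noncontrol probes on the array, and 10 genes of the 27962 gene names. Tlr3 and Tlr4 had 2 probes each and the other genes had 1. Of the 10 genes, 9 were measured, which here means that a probe was flagged by the scanner software as well above background on every array of the control group, the Gen group or both. The exception was Tlr8.

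Toll-like receptors are membrane proteins that bind conserved molecules of bacteria, viruses and fungi and start an inflammatory response through adaptor proteins and the transcription factor NF-κB. Tlr1, Tlr2, Tlr4, Tlr5 and Tlr6 sit at the cell surface, whereas Tlr3, Tlr7, Tlr8 and Tlr9 bind nucleic acids inside endosomes. Leukocytes, above all macrophages, dendritic cells and B cells, carry many of these receptors, and epithelial cells of the female reproductive tract carry some of them.

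Female CD-1 pups received daily subcutaneous injections from PND1 to PND5, of Gen in corn oil at 50 mg/kg/day or of corn oil alone (control). At 6–8 weeks of age all mice were superovulated and mated. Their oviducts, cleared of embryos, were taken on GD2, which was 48 hr after the dose of hCG. Each of the 4 control and 4 Gen arrays held Cy3-labeled RNA from both oviducts of 1 mouse. Controls and Gen-treated mice were hybridized on separate slides, 1 per group, so that treatment and slide cannot be told apart in any comparison here. Signals are linear intensities of the scanner software, scaled so that the arrays share their 75th percentile. They have no unit, and the level of a gene can be compared between arrays but not with that of another gene.

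The labelled tissue carried its defining genes on all 8 arrays. The oviduct secretory glycoprotein gene Ovgp1 had a mean signal of 517773 in control and 538265 in Gen-treated mice, with a saturated probe on 1 Gen array, the ciliated cell regulator Foxj1 53678 and 54789, and the epithelial transcription factor Pax8 1107 and 915. An array had between 25359 and 31480 probes well above background, and every Gen array had more than every control array. Probes that were not above background on any array were lower in Gen as a group, with a median log2 fold change of −1.16 and 63.4% of 7908 such probes called lower. The array labelled control 3 stood apart from the other controls in inflammatory genes, and results that rest on it are given with and without it.

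The probes of the receptor family that form heterodimers, Tlr2 with its partners Tlr1 and Tlr6, are shown because these genes encode related partner proteins. Each is a 60-base oligonucleotide, given 5′ to 3′ from the array design. Capitals in the first pair mark TTTTGGG, the longest run that the Tlr1 and Tlr2 probes had in common.
Tlr1, chr5:64279687-64279746, minus strand, mm7: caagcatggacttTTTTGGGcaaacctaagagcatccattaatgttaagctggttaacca
Tlr2, chr3:83941473-83941532, minus strand, mm7: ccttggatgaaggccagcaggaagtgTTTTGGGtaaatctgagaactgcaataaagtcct
Tlr6, chr5:64307937-64307996, minus strand, mm7: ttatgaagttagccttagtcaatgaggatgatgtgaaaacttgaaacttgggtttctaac

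That run was 7 bases long, and the longest runs that the Tlr6 probe had in common with the Tlr1 and Tlr2 probes were 5 and 6 bases. In the best ungapped alignment the Tlr1 and Tlr2 probes matched at 29 of 47 bases, Tlr1 and Tlr6 at 22 of 57, and Tlr2 and Tlr6 at 21 of 58. The Tlr1 and Tlr6 probes, whose genes gave similar changes, were thus not near copies of each other. Cross-hybridization was not tested. The probe of Tlr7, the other gene called higher, lies on the X chromosome (chrX:162079619-162079678, minus strand, mm7), and its first 30 bases were:
Tlr7: acctaggacatgccttggtacctgaagttt

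Across the 9 measured genes, Tlr1 and Tlr7 were higher in Gen-treated mice, about 2.06-fold and 1.71-fold, and none was called lower. A gene was called at an adjusted p under 0.05 (limma, Benjamini-Hochberg over all 41173 probes tested). The 2 calls compare with 2.83% of the 28954 measured probes called higher and 2.19% called lower, and with 16.2% of all probes tested called in either direction, most of them dim. With only measured probes tested, 0 of the 9 genes and 1.11% of those probes were called. At the unadjusted p under 0.01 that the methods of the study used, 3 of 9 were higher and 0 lower, against 3.3% and 2.58% of the measured probes. At an unadjusted p under 0.05 the counts in limma were also 3 and 0, with no share of all probes beside them. By the methods' t-test 3 of the 9 were under 0.05, beside 11364 of the 41173 probes tested, dim ones included. The median log2 fold change of the 9 genes was −0.07, beside 0.02 over the measured probes, and 4 genes were above zero and 5 below. Without control 3 the median turned to 0.19, with 6 genes above zero and 3 below. In 3 genes, Tlr1, Tlr6 and Tlr7, every Gen array was above every control array, and in Tlr5 every Gen array was below, where 5.1% and 7.34% did so of the 24920 probes with signal well above background on all 8 arrays. In RNA of the whole oviduct, a change in the number of cells that carry a receptor and a change in its RNA per cell cannot be told apart.

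**Figure D1:**
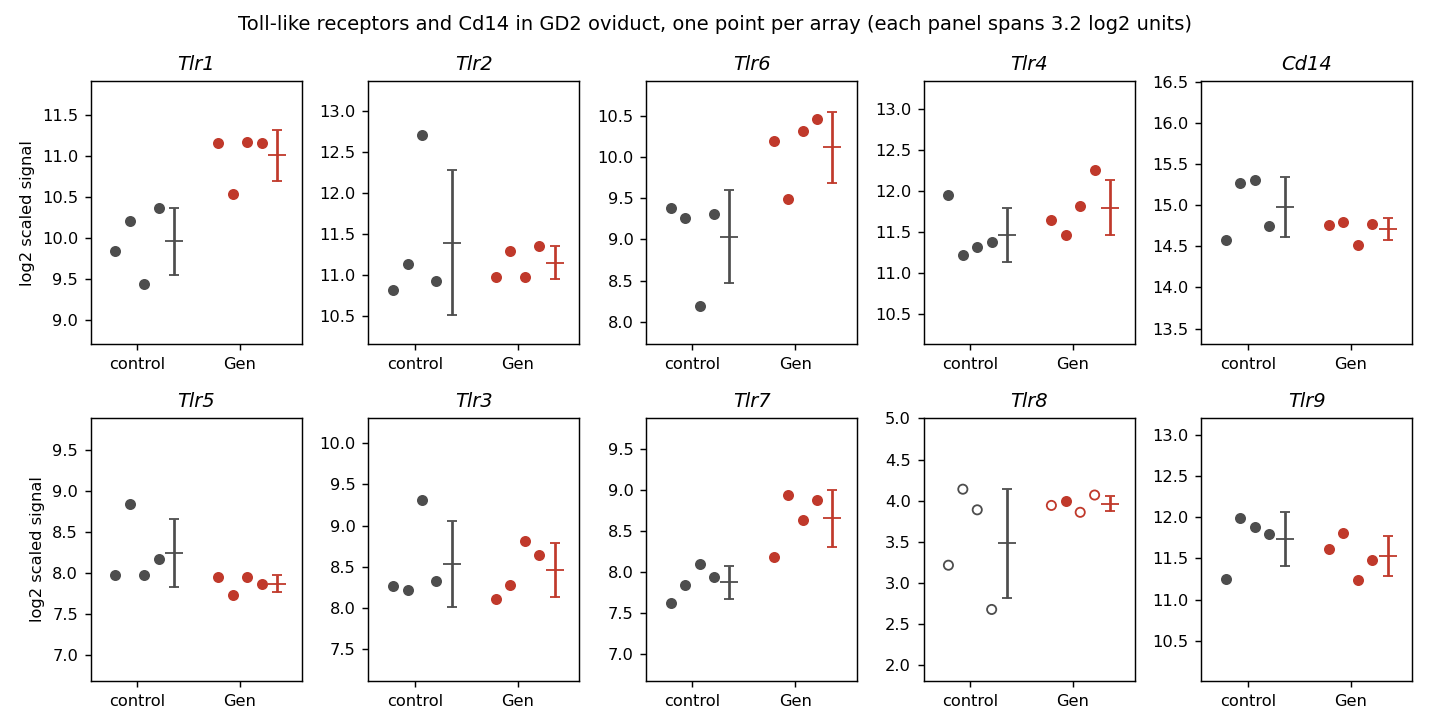
Scaled signal on a log2 axis for the 10 genes in 4 control (grey) and 4 Gen (red) arrays, with 1 point per array in the order of the replicate numbers and the mean ± SD beside them. Filled points were well above background, and open points were not. The groups are separate for Tlr1, Tlr6 and Tlr7 (Gen above) and narrowly for Tlr5 (Gen below), control 3 is the highest control for Tlr2 and Tlr3 and the lowest for Tlr1 and Tlr6, and only 1 Tlr8 point is filled.

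Tlr1, which pairs with Tlr2 to bind triacylated bacterial lipopeptides, had scaled signals of 916, 1179, 697 and 1313 in controls 1 to 4 and of 2285, 1489, 2307 and 2285 in Gen 1 to 4. The lowest Gen array, Gen 2, was still above the highest control, and the other 3 Gen arrays lay between 2285 and 2307. Gen-treated mice differed by a log2 fold change of 1.05 (SE 0.24, n = 4 per group, adjusted p = 0.0244), and the fold of 2.06 had a 95% confidence interval of 1.41 to 3.02. The call depends on the dim probes being tested too: with only measured probes tested the change was the same and the adjusted p was 0.0714. With 1 array left out the adjusted p was under 0.05 in 3 of 8 fits, and without control 1 or without any 1 Gen array it was between 0.0532 and 0.0675, at log2 fold changes of 0.99 to 1.20.

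Tlr6, the partner of Tlr2 for diacylated lipopeptides, had 665, 611, 291 and 636 in controls and 1175, 723, 1272 and 1414 in Gen. The groups did not overlap, with Gen 2 again the lowest of its group and control 3 the lowest array of all. The log2 fold change of 1.09 (SE 0.32, n = 4 per group) did not pass the threshold (adjusted p = 0.0549). Without control 3 it was 0.80 with an adjusted p of 0.0708. An intensity trend with a robust fit gave the same change an adjusted p of 0.0359, and a test on 1 mean per gene name an adjusted p of 0.0491.

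Tlr1 and Tlr6 lie next to each other on chromosome 5, with 0 protein-coding genes between them in the RefSeq table (assembly GRCm38.p6). Their log2 signals within an array kept almost the same distance in both groups: Tlr1 minus Tlr6 was 0.93 ± 0.34 in controls and 0.89 ± 0.15 in Gen (SD, n = 4), a difference of −0.04 (exact permutation p = 0.886, two-sided). After group means were subtracted, the correlation of the 2 genes over the 8 arrays was 0.87, given as a description. It rests largely on control 3 and Gen 2, the lowest arrays of their groups in both genes. The genes on either side with a probe did not share their direction. Klf3, a transcriptional repressor gene, was lower in Gen at a log2 fold change of −0.51 (SE 0.14, adjusted p = 0.0441, or 0.102 with only measured probes tested), and Fam114a1 had −0.37 (adjusted p = 0.0869). These neighbours were looked up after the values of Tlr1 and Tlr6 had been seen.

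Tlr2, the common partner of both, had 1803, 2248, 6667 and 1945 in controls and 2023, 2499, 2015 and 2619 in Gen. All Gen arrays lay within the range of the controls, which control 3 widened, at 3.35-fold over the mean of the other 3. Gen 2 and Gen 4 were above the other 3 controls. Its log2 fold change was −0.24 (SE 0.40, adjusted p = 0.739), with a 95% confidence interval of 0.446 to 1.598 on the fold scale, and it was 0.19 (SE 0.16, adjusted p = 0.536) without control 3. The interval with 8 arrays does not exclude a change as large as 1.5-fold in either direction. 

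Changes were also compared within arrays for 5 pairs of genes chosen after the data were seen, of which 3 join functional partners (Tlr1 and Tlr6 with Tlr2, Cd14 with Tlr4), 1 joins the neighbouring genes Tlr1 and Tlr6, and 1 joins the endosomal receptors Tlr7 and Tlr9. Tlr1 minus Tlr2 on the log2 scale was 1.29 higher in Gen than in control (exact permutation p = 0.0571, two-sided) and Tlr6 minus Tlr2 was 1.33 higher (exact permutation p = 0.0857). Both had an adjusted p of 0.143 over the 5 pairs, and without control 3 the differences were 0.68 and 0.61. With 4 arrays against 4 the smallest exact p is 0.0286, which could not pass the adjustment over 5 pairs for a single pair. A difference between the change of Tlr2 and those of its partners was therefore not shown.

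Tlr4 and Cd14 act on lipopolysaccharide, Cd14 by passing it to the complex of Tlr4 and Ly96. The Tlr4 probe with signal had 3974, 2389, 2549 and 2658 in controls and 3202, 2841, 3625 and 4887 in Gen. Control 1 lay above 3 of the 4 Gen arrays, and the log2 fold change of 0.33 (SE 0.22, adjusted p = 0.384) left a 95% interval of 0.882 to 1.79 on the fold scale. The other Tlr4 probe, 60 bases at chr4:66363220-66363279 of mm7, was not well above background on any of the 8 arrays, and no change is read from it. Cd14 had 24527, 39446, 40570 and 27588 in controls and 27805, 28535, 23370 and 28050 in Gen, so that controls 2 and 3 were higher than all other arrays. Its log2 fold change was −0.26 (SE 0.19, adjusted p = 0.417), and Cd14 minus Tlr4 within arrays was 0.60 lower on the log2 scale in Gen, at −0.60 (exact permutation p = 0.171, 0.214 over the 5 pairs).

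Tlr5, the receptor for flagellin, had 252, 460, 253 and 287 in controls and 247, 213, 247 and 232 in Gen. The groups were separate, yet the gap between the highest Gen array and the lowest control was small, and control 2 lay well above the other controls. The log2 fold change of −0.37 (SE 0.20) did not pass the threshold (adjusted p = 0.286).

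Among the endosomal receptors, Tlr7, which binds single-stranded RNA and is known from plasmacytoid dendritic cells, B cells and macrophages, had 196, 230, 274 and 246 in controls and 289, 489, 395 and 471 in Gen. Every Gen array was above every control, with Gen 1 close to control 3. This gave a log2 fold change of 0.78 (SE 0.19, n = 4 per group, adjusted p = 0.0291), a fold of 1.71 with a 95% confidence interval of 1.26 to 2.34. With only measured probes tested the adjusted p was 0.0862. With 1 array left out the call held without control 3 or control 4, and otherwise the adjusted p was between 0.0633 and 0.0762, at log2 fold changes of 0.68 to 0.94.

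Tlr9, which binds unmethylated CpG DNA, had 2444, 4062, 3778 and 3572 in controls and 3142, 3587, 2410 and 2851 in Gen. The groups overlapped, and the log2 fold change was −0.20 (SE 0.20, adjusted p = 0.565), with a sign that depended on the scaling (0.04 without scaling, where the median of the same 24920 probes moved from −0.01 to 0.24). Tlr7 minus Tlr9 within arrays, which needs no scaling, was −3.86 ± 0.21 in controls and −2.88 ± 0.40 in Gen (SD, n = 4), with no overlap between the groups. The difference of 0.98 had an exact permutation p of 0.0286, the smallest that 4 against 4 can give, and an adjusted p of 0.143 over the 5 pairs.

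Tlr3, a receptor for double-stranded RNA, had 306, 298, 637 and 322 in controls and 275, 311, 449 and 400 in Gen. Control 3 was the highest array, and the log2 fold change of −0.07 (SE 0.28, adjusted p = 0.897) became 0.19 without it. The other Tlr3 probe gave 0.15 (SE 0.21, adjusted p = 0.690), so no direction is given for Tlr3. Tlr8, which lies beside Tlr7 on the X chromosome, was well above background on 0 of 4 control arrays and 1 of 4 Gen arrays, with signals of 6.39 to 17.6, and no fold is given. Of the measured genes flanking Tlr7 and Tlr8, the growth factor gene Egfl6 had a log2 fold change of −0.60, Tmsb4x, an actin-binding protein gene, −0.19 and the nucleotide synthesis enzyme gene Prps2 −0.06. None of these 3 passed the test (limma), and 1 of them, Egfl6, had an unadjusted p under 0.05 (0.0394).

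**Figure D2:**
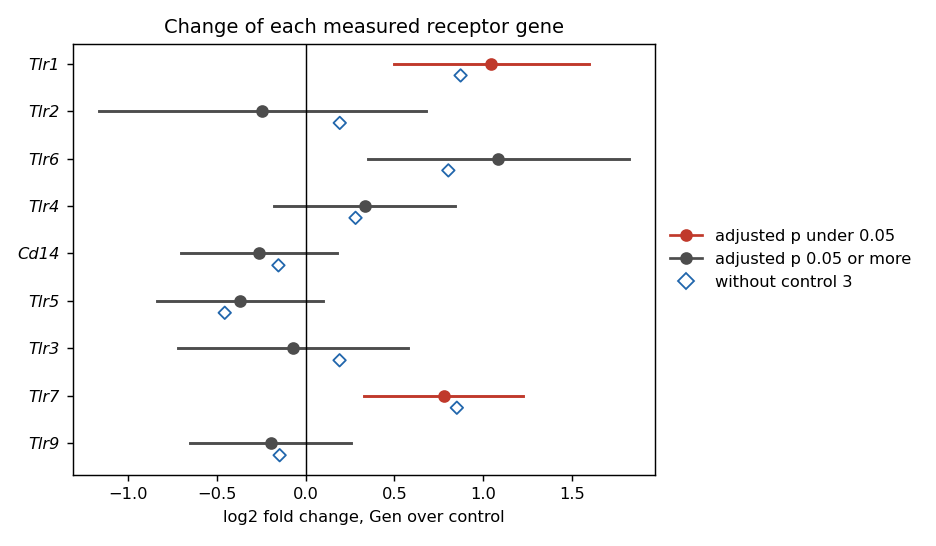
Log2 fold change of Gen over control for the 9 measured genes on the horizontal axis, with 95% confidence intervals from limma as bars, in red where the adjusted p was under 0.05, and the value without control 3 as an open diamond. The intervals of Tlr1, Tlr6 and Tlr7 lie above zero, those of the other 6 genes include it, and leaving out control 3 moves Tlr2 and Tlr3 across zero.

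Control 3 differed from the other controls in most of the measured receptor targets. Of 9 targets, it was above every other control in 8 and over 2-fold above their mean in 7, and the exceptions to the latter were Ccl5 (1.22-fold) and Ptgs2 (0.721 of their mean). Tlr2 in control 3, at 6667, was 3.35-fold over the mean of the other 3 controls, a ratio reached by 0.325% of 24920 probes that every array measured above background. Over the 8 arrays, after group means were subtracted, the genes whose pattern was most like that of Tlr2 were Tnfaip3 (r = 0.993) and Icam1 (r = 0.976). Tnfaip3 encodes an inhibitor of NF-κB signaling that is itself induced by it, and Icam1 a leukocyte adhesion molecule. These correlations rest on control 3, where Tnfaip3 was 6.90-fold and Icam1 5.48-fold over the other controls.

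The cytokine genes Tnf and Il1b showed the same array. Tnf had 24, 53, 924 and 43 in controls and 87, 157, 93 and 59 in Gen, with control 1 not well above background, and Il1b had 136, 279, 2471 and 303 in controls and 304, 490, 378 and 219 in Gen. The neutrophil-attracting chemokine gene Cxcl1, named after its values were seen, had 11242 in control 3 and between 61.6 and 75.02 in the other controls. In contrast, Tlr6 in control 3 was 0.457 of the other controls' mean, a ratio as low as which was found in 0.221% of probes, and Tlr1 was 0.620 of it (1.12%). Tlr3 was 2.07-fold over the others by its brighter probe. Its other probe differed less, with 301 in control 3 and 281, 230 and 242 in controls 1, 2 and 4. On this array, therefore, Tlr2 and the brighter Tlr3 probe were higher and Tlr1 and Tlr6 lower than in the other 3 controls. Control 3 also had the fewest probes well above background (25359) and the most outlier spots (135) of all arrays. The neutrophil genes S100a8 and S100a9 were also highest among controls in control 3, at 2468 against 47.4 to 442 and 24568 against 336 to 4367, whereas the leukocyte gene Ptprc and the macrophage gene Adgre1 were 1.21-fold and 1.20-fold over the other controls.

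**Figure D3:**
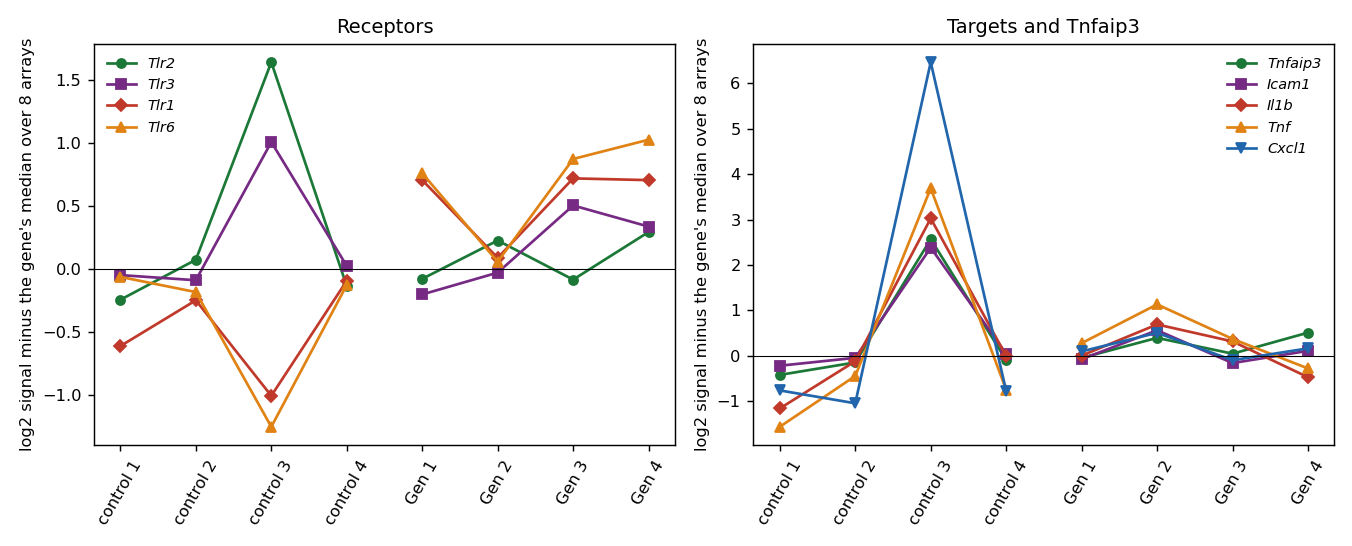
Log2 scaled signal minus the median of the gene over the 8 arrays, on the vertical axis, for 4 receptor genes (left) and for Tnfaip3 and 4 receptor target genes (right), with 1 line per gene and arrays in the order of the labels. Tlr2 and Tlr3 and all 5 genes on the right peak in control 3, where Tlr1 and Tlr6 have their lowest values.

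For the other members the most similar genes over the 8 arrays, out of 24920 probes and with group means subtracted, were Dpm1 and Slc16a11 for Tlr1 (r = 0.981 and 0.971), Plekhg6 and Ap4s1 for Tlr6 (0.985 and 0.976), Rab28 and Ints13 for Tlr4 (0.996 and 0.994), Trak2 and S1pr2 for Tlr7 (0.982 and 0.976) and Pip5k1c and Ccin for Tlr9 (0.995 and 0.993). For Tlr3 they were Zfp94 (0.956) and the interferon regulatory factor gene Irf1 (0.948), for Tlr5 Paqr3 (0.977) and 2310001H17Rik (0.974), and for Cd14 the ammonia transporter gene Rhbg (0.973) and Ctla2a (0.958). With 8 arrays, such values are found for any gene, and no function is read from them.

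Genes through which the receptors signal were also compared between the groups. Of a list of 58 pathway genes 55 had a probe, and Tlr11, Tlr12 and Tlr13 did not. Of the 50 that were measured, 3 were called higher and 1 lower, beside 2.83% and 2.19% of the measured probes, with 17 above zero, 33 below and a median log2 fold change of −0.15. At an unadjusted p under 0.05 in limma, 4 were higher and 8 lower, with no share of all probes to set beside these counts. By the methods' t-test 16 of the 50 were under 0.05, beside 11364 of the 41173 probes tested. No excess of pathway genes is read from these counts.

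The 1 gene called lower was Lbp, which encodes the serum protein that delivers lipopolysaccharide to Cd14. It had 70230, 120215, 96789 and 85608 in controls and 42033, 47617, 45754 and 37183 in Gen, with every Gen array below every control. The log2 fold change was −1.09 (SE 0.18, adjusted p = 0.0236). The call held with only measured probes tested (adjusted p = 0.0370) and was lost with quantile normalization (0.0701), without scaling (0.0823) and with a floor under dim signals (0.101). It was also lost with the replicate block and with the methods' t-test, where 0 of all probes passed after adjustment. Over the alternatives that tested single probes on all 8 arrays the adjusted p of Lbp was between 0.0228 and 0.101. Without control 1, Gen 1, Gen 2 or Gen 3 the adjusted p was between 0.0508 and 0.0675, at log2 fold changes of −1.22 to −1.08. The other members of the lipopolysaccharide complex were not called: Ly96, the coreceptor bound to Tlr4, had a log2 fold change of 0.13 (adjusted p = 0.549), beside 0.33 for Tlr4 and −0.26 for Cd14.

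The 3 genes called higher were Cd180, Ly86 and Ccl5. Cd180 encodes a Toll-like receptor homolog of B cells and myeloid cells and Ly86 the protein bound to it. Cd180 had 68.2, 97.8, 82.95 and 148 in controls and 212, 319, 212 and 160 in Gen, a log2 fold change of 1.20 (SE 0.29, adjusted p = 0.0252), and Ly86 had 5167, 4386, 4460 and 4629 against 7253, 8054, 5323 and 6460, a log2 fold change of 0.53 (SE 0.15, adjusted p = 0.0487). In both genes every Gen array was above every control. Cd180 was not well above background in control 3 and so counted as measured through the Gen group alone. Ccl5, a chemokine for T cells, had a log2 fold change of 0.61 (SE 0.17, adjusted p = 0.0408). With only measured probes tested the adjusted p of the 3 genes was between 0.0790 and 0.109. With 1 array left out the call of Ly86 was lost in all 8 fits (adjusted p of 0.0603 to 0.125), that of Cd180 in 6, without any array but control 4 or Gen 4 (0.0531 to 0.0684), and that of Ccl5 in 6, without any array but control 3 or Gen 4 (0.0640 to 0.111).

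Of the 4 measured adaptors 3 were below zero. Myd88, the adaptor of all these receptors except Tlr3, had 10839, 26563, 25614 and 22759 in controls and 10708, 8441, 12668 and 9575 in Gen. Control 1 lay among the Gen arrays. The log2 fold change was −0.98 (SE 0.30, adjusted p = 0.0604), and without control 1 it was −1.28 (adjusted p = 0.0496). Ticam1, the adaptor of Tlr3 and Tlr4, had −0.18 (adjusted p = 0.308). Unc93b1, which carries Tlr3, Tlr7 and Tlr9 from the endoplasmic reticulum to endosomes, had 9081, 8849, 9760 and 9582 in controls and 12458, 13613, 10196 and 15592 in Gen, with no overlap, and a log2 fold change of 0.46 (SE 0.15) that did not pass the threshold (adjusted p = 0.0711).

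Of the 9 measured partners and chaperones 3 were called (Cd180, Ly86 and Lbp) and their median was 0.13. None of the 14 kinases and ligases (median −0.07, 1 at an unadjusted p under 0.05), the 7 transcription factors (−0.20, 0 at an unadjusted p under 0.05) and the 7 inhibitors (−0.26, 2 at an unadjusted p under 0.05) was called in limma. Of the 9 measured targets 1 was called, and their median was −0.30. Without control 3 the median of the targets turned to 0.68, with 7 of 9 above zero, and that of all 50 pathway genes moved to −0.02. Cxcl1 then was called higher, at a log2 fold change of 1.03 (adjusted p = 0.0226). Tnf had 1.29 without control 3 (adjusted p = 0.0708) and 0.14 with all arrays (adjusted p = 0.947), and Il1b 0.56 (adjusted p = 0.417) and −0.30 (adjusted p = 0.847). Il6 had −1.52 (adjusted p = 0.163) and −1.92 (adjusted p = 0.0777). The direction given for the receptor targets thus rested on 1 control mouse.

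Some leukocyte genes were also higher in Gen-treated mice. Of 41 leukocyte markers with a probe 40 were measured, 35 were above zero, 6 were called higher and 0 lower, beside 2.83% and 2.19% of the measured probes, with a median log2 fold change of 0.47. At an unadjusted p under 0.05 in limma, 11 were higher and 0 lower, with no share of all probes to set beside these counts. By the methods' t-test 9 of all 49 measured markers were under 0.05, beside 11364 of the 41173 probes tested. No excess of leukocyte genes is read from these counts. The 9 measured markers outside the leukocyte lists, 4 endothelial and 5 epithelial, had 0 calls, with 0 at an unadjusted p under 0.05 in limma. Ptprc, the pan-leukocyte antigen CD45, had 2280, 2201, 2881 and 2687 in controls and 3956, 5775, 3482 and 3554 in Gen, a log2 fold change of 0.72 (SE 0.19, adjusted p = 0.0367). Adgre1, the macrophage antigen F4/80, had 6103, 6684, 7572 and 6198 against 8922, 13314, 10042 and 9954, a log2 fold change of 0.66 (SE 0.15, adjusted p = 0.0246). In both, every Gen array was above every control and Gen 2 was the highest.

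The other markers called higher were Itgam of myeloid cells (log2 fold change 0.74, adjusted p = 0.0236), Siglech of plasmacytoid dendritic cells (1.19, adjusted p = 0.0238), Pax5 of B cells (1.26, adjusted p = 0.0368) and Cd8a of T cells. Of the 6 genes, 3 counted as measured only through the Gen group, where they were higher: Siglech and Pax5 were well above background on 3 of 4 control arrays and Cd8a on 0. Cd8a was not above background on any control array. The fit of its measured signals, with mean log2 values of 4.25 and 5.67, gave an adjusted p of 0.0393. With controls raised to the lowest signal well above background on their array, the fold was 1.24. With a floor under dim signals its log2 fold change was 0.11 (adjusted p = 0.830), and with normexp background correction 0.28 (adjusted p = 0.408). With only measured probes tested, only Itgam kept its call among the 6 (adjusted p = 0.0413). In the test on 1 mean per gene name, only Siglech, which had 1 probe, kept its call (adjusted p = 0.0214). There Itgam (2 probes) had a log2 fold change of 0.48 (adjusted p = 0.130) and Pax5 (2 probes) 0.41 (adjusted p = 0.286). Cd8a (3 probes) had 0.15 (adjusted p = 0.850), Ptprc (4 probes) 0.76 (adjusted p = 0.0847) and Adgre1 (2 probes) 0.62 (adjusted p = 0.0533). Each of the 6 calls was lost in 4 to 7 of the 8 fits with 1 array left out, in every case without control 1, without Gen 1, without Gen 2 and without Gen 3, and the adjusted p in these fits was between 0.0519 and 0.0991. The macrophage receptor gene Csf1r had 0.37 (adjusted p = 0.292), the B-cell receptor gene Cd79a 0.73 (adjusted p = 0.378) and the neutrophil gene S100a8 1.80 (adjusted p = 0.345), none of which passed the test.

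By list, the 4 pan-leukocyte genes were all above zero, with a summed signal of 8390 to 11746 in controls and 12200 to 23821 in Gen. A sum is led by its brightest probes and is compared only between arrays. The 12 macrophage and monocyte genes were also all above zero (133233 to 193027 in controls, 189256 to 258306 in Gen, mostly from Lyz2, and 41744 to 56800 and 58178 to 86100 without it), and so were the 6 B-cell genes (1396 to 2778 and 2566 to 10980). Of 7 measured neutrophil genes 6 were above zero, with sums of 229538 to 415130 and 380482 to 454644 that were mostly Ltf. Without Ltf 5 of 6 were above zero, with overlapping sums of 931 to 27954 and 4523 to 18654, and Elane was not above background on any array. Of 6 genes of T cells and natural killer cells 5 were above zero (1074 to 1316 and 1247 to 1521), of 5 dendritic cell genes 2 (924 to 1627 and 1077 to 2606) and of 4 endothelial genes 4 (8785 to 10188 and 9094 to 12084). Ly6g had no probe. The 5 oviduct epithelial genes had a median of 0.03.

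Gen 2 had the highest summed signal of the pan-leukocyte, macrophage and B-cell lists, at 23821, 258306 (86100 without Lyz2) and 10980. Tlr7 had its highest signal in this array (489), whereas Tlr1 and Tlr6 had the lowest of the Gen group there (1489 and 723). The part of these cell types in the changes of Tlr1, Tlr6 and Tlr7 was not tested.

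**Figure D4:**
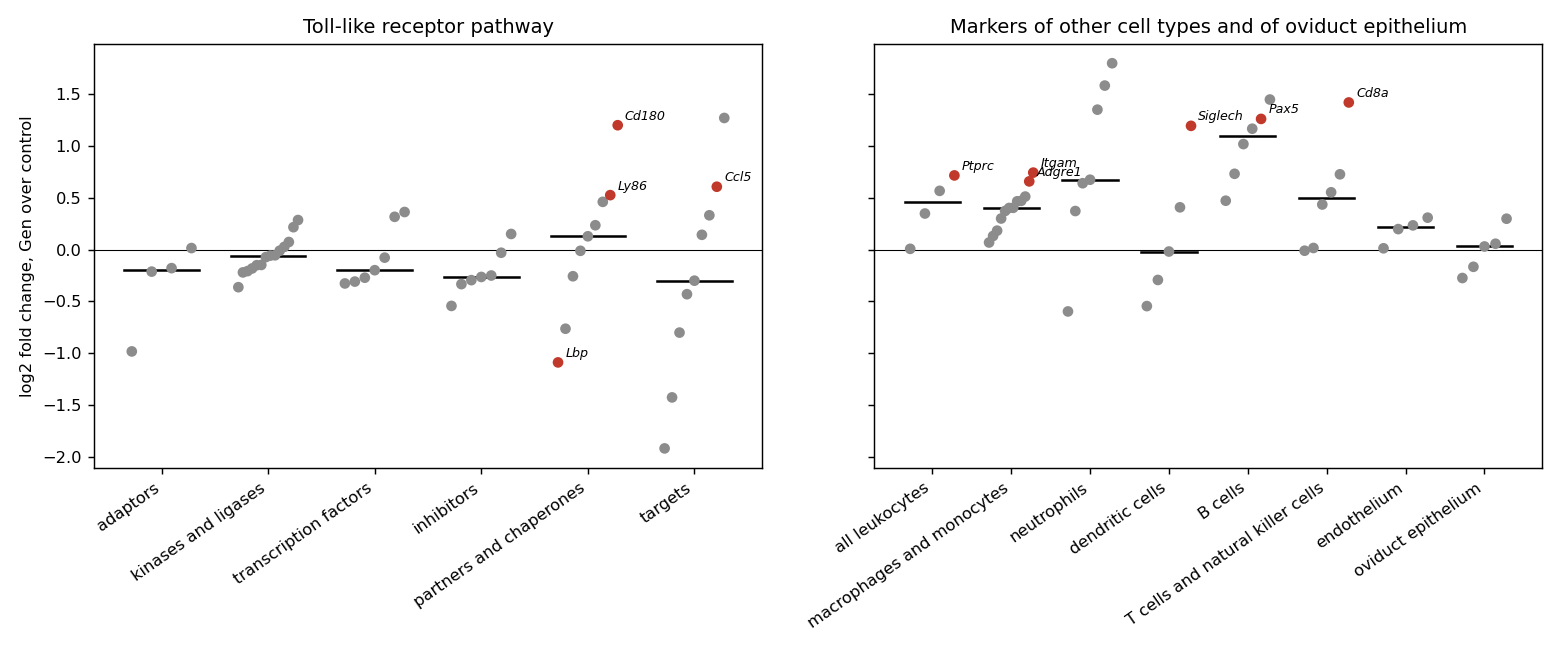
Log2 fold change of Gen over control for each measured gene of the pathway list (left, by role) and of the marker lists (right, by cell type), with the median of each list as a bar and genes with an adjusted p under 0.05 in red and named. The leukocyte lists lie mostly above zero, and the epithelial genes lie around it. The point of Cd8a is a fitted value for a gene below background in all controls.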

How the data were processed

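RNA of 8 oviduct samples (4 control, 4 Gen), each on 1 Agilent whole mouse genome array with 1 dye, was analysed from the files the authors deposited. These hold linear intensity values, the processed signal of Agilent Feature Extraction 9.5 (version from the submitters' processing notes), after background adjustment within the array and before any scaling between arrays. The series table that the authors also deposited repeats this intensity in all 45018 spots of each array. Later steps of the study were not applied.

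Control spots (1639 per array) and outlier spots were left out, spots of a probe were averaged as log2, and arrays were brought to a common 75th percentile, the mean of theirs. Before scaling, these percentiles were 1908 to 2432 in controls and 2149 to 3772 in Gen. Groups were compared with limma 3.58.1 in R 4.3.3 (lmFit, eBayes), without covariates, over 41173 probes, 1 further probe having no value left in 1 group. Fold changes are ratios of mean log2 signals. The probe with the highest mean stood for a gene. The steps were tested on simulated data. The small number of arrays limits the precision. Alternatives were quantile normalization, no scaling, normexp (offset 50), a filter on dim probes (tests on measured probes only), a floor, keeping outlier spots, a robust fit with an intensity trend, blocking by replicate number, averaging a gene's probes, the methods' t-test, an unadjusted p under 0.01, and each array left out in turn.

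The members and the gene lists were chosen with earlier results of these data known. The genes named are the 10 members, the listed genes that were measured and called, a fixed set (Myd88, Ticam1, Ly96, Lbp, Unc93b1, Tnf, Il1b, Il6, Ptprc, Adgre1, Csf1r, S100a8, Cd79a, Ovgp1, Pax8, Foxj1), and for each member the 2 genes most correlated with it. Flanking genes, Cxcl1, Ptgs2, S100a9, Lyz2, Ltf, Elane and Kdr were named after their values were seen. Gene symbols came from RefSeq tables (GRCm38.p6) by accession for 22944 probes and by name or synonym for 9772, and 8458 kept the name in the files. Positions of probes were taken from the array design (mm7, NCBI build 35). Exons and untranslated regions were not annotated, since no genome of this build was used here.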

Additional observations from a re-analysis of the deposited data

Results flagged for a closer look

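In 5 of the 18 groups of 4 arrays (9 measured genes, 2 groups each), 1 array lay far from the other 3 by Dixon's ratio on the log2 scale, and chance gives about 1 in 20 groups. Tlr2 had 6667 in control 3, against 2248 in the next control. Tlr3 had 637 in control 3, against 322. Tlr6 had 291 in control 3, against 611 in the next lowest control. In the Gen group, Tlr1 had 1489 in Gen 2, against 2285 in the next lowest array, and Cd14 had 23370 in Gen 3, against 27805. Of these 5, 3 fell on control 3.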

How the results depend on the processing

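Of the 9 measured genes 2 were called with the settings above. The count was 0 with quantile normalization, without scaling, with normexp, with the filter on dim probes, with the floor, with the methods' t-test after Benjamini-Hochberg adjustment and with the replicate block, where 3 or 4 genes had an unadjusted p under 0.05 in each, and it was 0 to 2 with 1 array left out. It was 2 with outlier spots kept and 3 with the intensity trend and robust fit, with the mean of all probes and at an unadjusted p under 0.01. The t-test at an unadjusted p under 0.01 called 2. Of the pathway genes 4 were called, against 0 with quantile normalization, without scaling, with the floor, with the t-test and with the replicate block (8 to 16 at an unadjusted p under 0.05 in these), 1 with normexp, 1 with the filter on dim probes, 6 with the intensity trend and robust fit (4 higher, 2 lower), 5 with the mean of all probes (3 higher, 2 lower), and 0 to 3 with 1 array left out. Of the markers 6 were called, against 0 with quantile normalization, normexp, the floor, the t-test and the replicate block (9 to 13 at an unadjusted p under 0.05), 3 without scaling, 1 with the filter on dim probes, 8 with the intensity trend and robust fit, 2 with the mean of all probes (Siglech higher and the endothelial gene Kdr lower), 3 with the t-test at an unadjusted p under 0.01, and 0 to 5 with 1 array left out. The mean of the 2 Kdr probes had a log2 fold change of −0.64, whereas its brighter probe alone had 0.01 (limma, adjusted p = 0.963). The dim filter and the floor leave the change of a bright gene as it was. They alter both the variance that limma shares across probes and the adjustment, and these were not told apart. For the other settings the cause was not tested. The counts at an unadjusted p under 0.05 have no share of all probes beside them except in the t-test. There 11364 of the 41173 probes tested had an unadjusted p under 0.05. After adjustment the t-test called 0 of all probes, so its 0 counts here say nothing particular to these genes. Shares of all probes called are otherwise given only for the main settings, the filter on dim probes and the unadjusted p under 0.01 in limma. The log2 fold changes of Tlr1, Tlr6 and Tlr7 were above zero in every setting run.

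Signs turned in Tlr2 without control 3 (range −0.44 to 0.19 with 1 array left out), in Tlr3 without control 3 or Gen 1 (0.19 and 0.05, range −0.19 to 0.19) and without scaling (0.17), and with the mean of its probes (0.041), in Tlr4 with the mean of its probes (−0.55, of which 1 was below background), and in Tlr9 without scaling (0.043). None of these genes was called in any setting. The replicate numbers gave no sign of pairing the samples. Deviations of arrays with the same number correlated at −0.08, 0.11, −0.02 and −0.18 over 24920 probes, and no control correlated best with the Gen array of its own number. These correlations cannot exclude a pairing. The study compared Gen-treated mice with control littermates, but the litter of each sample is not known here. The replicate block, which gave 0 calls among the members, therefore has no known pairing behind it. Dim genes such as Tlr8 have no level here.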
